A study of Homo sapiens with 12 samples.

Results

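The regions described here are H3K9me3 peaks that the authors listed in wild-type (WT) 293T cells and that had no peak nearby in SMARCA3 knockout (KO) cells. The members were chosen by the positions of the peaks in both lists: each is a WT peak on chromosomes 1 to 22 with no KO peak within 5000 bp, counted between nearest ends. Peaks that met any of 5 blocks with broad differences between the lists were left out. The blocks lie on chromosome 1 from 187 to 197 Mb, chromosome 3 from 149 to 179 Mb, chromosome 4 from 159 to 165 Mb, chromosome 10 up to 28.5 Mb and chromosome 13 from 80 to 93 Mb. Of 46898 WT peaks, 42985 lay on chromosomes 1 to 22 and 40760 of those outside the blocks, and 2530 were members. The same rule with the lists exchanged gave 16938 isolated KO-only peaks among 60375 KO peaks, and these serve as the mirror image throughout. The comparison with the mirror image is not symmetric. Inside the blocks left out, 33% of WT and 12.4% of KO peaks were isolated, whereas chromosome 21, with 70.3% of its KO peaks isolated, was kept. Counts and shares of isolated KO-only peaks below include such stretches.

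The 293T cell line, made from embryonic kidney, expresses the large T antigen of SV40. Both groups were 293T cells, 1 labelled WT and 1 labelled SMARCA3_KO, with 3 anti-H3K9me3 ChIP and 3 input libraries each, from biological triplicates per the labels. The sources used here do not give whether the knockout line is 1 clone or how the libraries of a genotype were combined. The data used are 2 peak lists, 1 per genotype, so differences between genotypes have no replicate check, and no p-value was computed. A peak list measures no expression, so neither the identity of the line nor the loss of SMARCA3 could be checked with marker genes.

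Trimethylation of lysine 9 on histone H3 is written by enzymes such as SETDB1 and SUV39H1 and is read by the HP1 proteins. It packs pericentromeric satellites, silenced transposable elements and the exons of many zinc finger genes into heterochromatin. SMARCA3, now named HLTF, is a DNA translocase of the SNF2 family with a RING domain of ubiquitin ligases, known for its work at stalled replication forks.

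Where the authors' annotation put a member beside a small RNA gene or a member met a RefSeq promoter window, the letters are shown, because these are the members closest to an annotated start in those tables. The windows run from 250 bases before to 50 after each start (RefSeq, GRCh38.p14, the same coordinates as hg38). Of 2530 members, 4 met such a window (0.158%, 95% interval 0.0615 to 0.406). For each, the window of largest overlap belonged to a noncoding gene. The member at LOC102723657 met 2 windows, of which 1 is shown. The authors assigned that member to the protein-coding TBC1D21, and it lay 129 bp from the RefSeq start of TBC1D21. Each sequence is written 5′ to 3′ on the strand of the gene, and the capitals mark the bases inside the peak. LNCARSR (chr9:79567903-79568202, minus strand) shares 162 bases with a member of fold 1.96, LOC105378307 (chr10:52810916-52811215, minus strand) shares 36 bases with one of fold 3.69, LOC105370328 (chr13:98079013-98079312, minus strand) shares 125 bases with one of fold 3.65, and LOC102723657 (chr15:73873486-73873785, minus strand) shares 93 bases with one of fold 2.92.
LNCARSR: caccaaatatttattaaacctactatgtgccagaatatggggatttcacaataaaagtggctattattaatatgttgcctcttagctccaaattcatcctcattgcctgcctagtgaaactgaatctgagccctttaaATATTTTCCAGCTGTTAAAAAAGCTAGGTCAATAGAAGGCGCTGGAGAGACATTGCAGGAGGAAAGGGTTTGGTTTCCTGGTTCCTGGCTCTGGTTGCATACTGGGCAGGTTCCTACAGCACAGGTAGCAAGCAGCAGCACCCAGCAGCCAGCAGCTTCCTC
LOC105378307: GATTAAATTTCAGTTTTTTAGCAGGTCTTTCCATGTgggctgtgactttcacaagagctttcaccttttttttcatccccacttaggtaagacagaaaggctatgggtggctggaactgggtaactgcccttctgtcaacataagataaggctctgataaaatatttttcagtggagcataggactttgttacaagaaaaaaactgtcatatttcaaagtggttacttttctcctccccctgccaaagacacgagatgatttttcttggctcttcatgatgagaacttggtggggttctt
LOC105370328: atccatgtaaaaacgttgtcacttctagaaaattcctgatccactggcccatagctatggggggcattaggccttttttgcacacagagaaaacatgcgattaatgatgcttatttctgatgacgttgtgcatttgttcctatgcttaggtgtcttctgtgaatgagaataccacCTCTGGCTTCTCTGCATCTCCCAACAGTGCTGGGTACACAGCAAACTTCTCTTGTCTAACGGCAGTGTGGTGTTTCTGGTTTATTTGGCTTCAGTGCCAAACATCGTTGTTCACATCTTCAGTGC
LOC102723657: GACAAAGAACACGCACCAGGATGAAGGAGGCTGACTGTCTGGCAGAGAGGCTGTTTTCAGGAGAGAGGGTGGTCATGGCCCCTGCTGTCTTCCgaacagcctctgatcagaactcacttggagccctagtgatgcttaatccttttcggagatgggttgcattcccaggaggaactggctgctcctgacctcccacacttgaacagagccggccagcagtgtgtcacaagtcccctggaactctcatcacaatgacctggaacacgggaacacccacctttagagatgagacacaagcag

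These 4 windows held few CG dinucleotides, the bases that DNA methylation acts on. Their counts were 1, 1, 5 and 5 in the order above, where the median of all 35116 windows was 14 and 33.7% of windows had 5 or fewer. Their content of G and C was 44.7%, 40.3%, 44.0% and 54.3%, below the median of 58.7% over all windows. Among WT peaks that met a KO peak, 68 of 34103 met a promoter window (0.199%, 0.157 to 0.253), an interval that overlaps that of the members. Among isolated KO-only peaks 88 of 16938 did (0.520%, 0.422 to 0.640), above the interval of the members.

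A pair of members was assigned to microRNA genes, and neither covered the hairpin. On chromosome 21 a member from 16540206 to 16540532 (fold 3.53, 327 bp wide) began 294 bp beyond the hairpin of MIRLET7C, whose product belongs to the let-7 family of differentiation-linked microRNAs. On chromosome 15 a member from 80996361 to 80996751 (fold 3.17, 391 bp wide) ended 665 bp before the hairpin of MIR4514. The mature sequences follow with the seed, bases 2 to 8, in capitals, and no seed is shared between the 2 genes.
hsa-let-7c-5p: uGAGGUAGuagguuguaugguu
hsa-let-7c-3p: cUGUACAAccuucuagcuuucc
hsa-miR-4514: aCAGGCAGgauuggggaa

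The first question was how many WT peaks stood alone and how this compared with the mirror image. Isolated WT-only peaks made up 6.21% of the WT peaks considered (5.98 to 6.45), and isolated KO-only peaks 28.1% of the KO peaks (27.7 to 28.4). The isolated KO-only peaks were 6.69 times as many (6.42 to 6.98), where all KO peaks outside the blocks were 1.48 times as many as WT peaks. This value moved with the lists compared. Written as WT-only over KO-only it was 0.149, and it was 0.565 with the KO list cut to the length of the WT list, 0.513 with both lists at the common median fold and 0.0386 with the WT list alone held to that fold. Both shares are fixed by the rule and by how deeply each list was called, and they are given as descriptions. Inside the 5 blocks left out, 33% of 2225 WT peaks and 12.4% of 1453 KO peaks were isolated by the same distance. On chromosome X, which the rule does not cover, 783 of 3467 WT peaks (22.6%) and 407 of 2749 KO peaks (14.8%) were. The share in WT was thus above the share in KO in the blocks and on chromosome X and below it elsewhere. The blocks had been set apart because the lists differed broadly there. The shares inside them therefore reflect that choice and are no separate finding. Intervals here are Wilson 95% intervals, or Newcombe intervals for differences; they treat neighbouring peaks as independent and cover counting only.

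Members were narrow and of modest enrichment. The narrowest was 265 bp, the median 343.5 bp (quartiles 294 and 436) and the widest 1778 bp. WT peaks that met a KO peak had a median of 542 bp (363 and 910), and isolated KO-only peaks 404 bp (318 and 570). In the WT list 265 bp is also the lowest width of any peak, and 136 members (5.38%) had exactly that width, against 1.51% of WT peaks that met a KO peak. The authors' fold enrichment of members ran from 1.96 to 7.61 with a median of 3.60 (3.37 and 3.85), against a median of 3.85 (3.45 and 4.40) for WT peaks that met a KO peak. Their median q-value, the authors' adjusted p within the list, was 1.18e-05, against 5.55e-07. In all, members held 994 kb of the 28975 kb under WT peaks outside the blocks, or 3.43%. Width and fold come from the lists that chose the members, so these values describe the members and support nothing further.

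**Figure D1:**
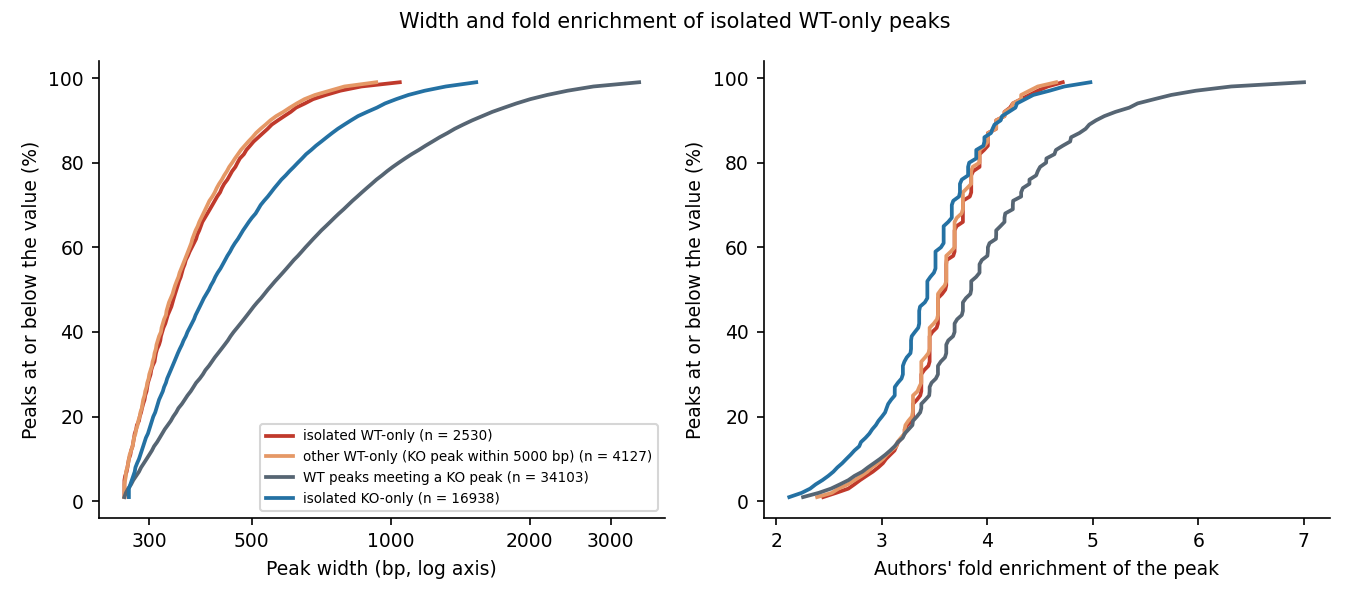
Left, peak width in bp on a log axis; right, the authors' fold enrichment; the vertical axes give the share of peaks at or below each value, drawn at each percentile, for 2530 isolated WT-only peaks, 4127 other WT-only peaks, 34103 WT peaks that met a KO peak and 16938 isolated KO-only peaks. The curves of the first 2 classes run together, with median widths of 343.5 and 339 bp, and lie left of the curve for WT peaks that met a KO peak, at 542 bp.

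The members resembled the WT-only peaks that had a KO peak close by. The 4127 WT peaks that met no KO peak but had one within 5000 bp had a median width of 339 bp and a median fold of 3.56. The share of fold 4 and above was 16.6% among members and 15.7% among these peaks, a difference of 0.908 percentage points (-0.896 to 2.75). The share in gene bodies differed by 1.73 points (-0.732 to 4.20) and the share in promoter classes by -0.399 points (-1.61 to 0.862). Each of these intervals includes 0. Their spacing follows from the rule, since most WT peaks meet a KO peak and a member has none within 5000 bp: 81.9% of the peaks near a KO peak and 19.9% of members had another WT peak within 5000 bp.

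The chance of being isolated was set against fold, width and surroundings. It was highest among WT peaks of fold 3 to 3.5, at 9.57% (8.95 to 10.2), and 5.37% below fold 3. Of 3740 WT peaks of fold 5 and above, 10 were isolated (0.267%, 0.145 to 0.492). By width the share was 12.8% up to 300 bp and 0.499% above 1000 and up to 2000 bp. None of 1718 WT peaks over 2000 bp was isolated, for which the limit set by 3 counts of the total is 0.175%, or 0.223% by the Wilson bound drawn in the plot of shares by fold, width and surroundings. In KO the share from fold 5 was 2.95% (2.52 to 3.44), with 155 of 5258 peaks. Counting the other WT peaks within 100 kb, 18.8% of WT peaks with none were isolated, 7.01% of those with 3 to 5, and 0.886% of those with 21 or more. In the KO list the share was 50.4% with no neighbour, 21.2% with 11 to 20 and 27.8% with 21 or more. Neighbours were counted within each list, so the densest bins of the WT and KO lists are not the same regions.

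**Figure D2:**
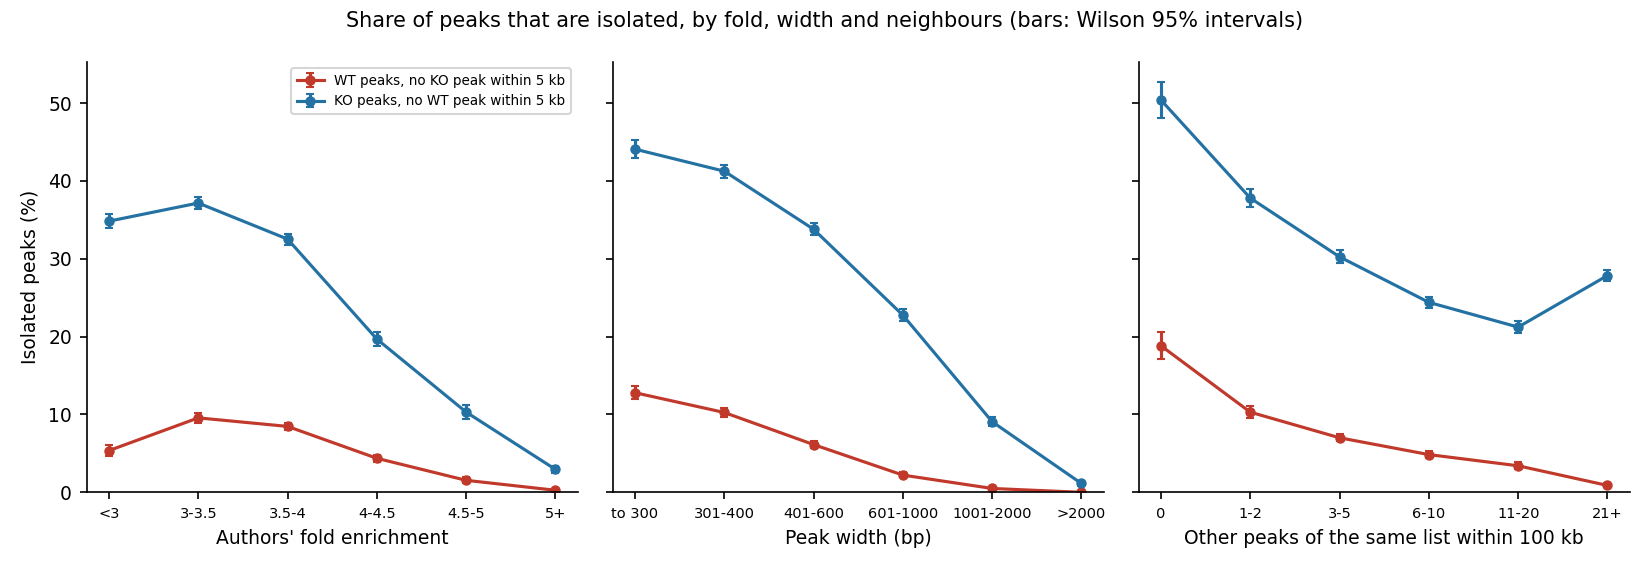
Share of WT peaks with no KO peak within 5 kb (red) and of KO peaks with no WT peak within 5 kb (blue), in percent, by the authors' fold, by width in bp and by the number of other peaks of the same list within 100 kb; bars are Wilson 95% intervals. Red values drop to 0.267% at fold 5 and above and to 0.886% with 21 or more neighbours, where the blue value is 27.8%.

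Of the 8 members of highest fold, 3 lay at the centromere of chromosome 4, and the others lay in or beside single genes or between genes. On chromosome 4 a peak from 50265848 to 50266301 had a fold of 7.61, one from 51125096 to 51125533 had 6.06 and one from 50538850 to 50539116 had 5.74. The nearest KO peaks were 454303, 404020 and 181488 bp away. A WT peak between them, from 50720613 to 50721069 with a fold of 7.40, met a KO peak. The flanking protein-coding genes are CWH43 and DCUN1D4, at least 708350 bp from each of these 3 peaks. Centromeres consist of satellite repeats, to which short reads can map in many places, and the part of such mapping in these calls was not tested. On chromosome 7 a member from 106599197 to 106599610 (fold 5.64) had a distance of -495 bp to the start of the noncoding AC005050.1, between NAMPT and CCDC71L. In C9orf85 on chromosome 9 the member from 71968365 to 71969048 had a fold of 5.37, and a further member ended 87 bp before it. Intergenic members followed on chromosome 1 from 77232431 to 77233210, between PIGK and AK5, and on chromosome 2 from 238477754 to 238479331, between ASB1 and TWIST2, both with a fold of 5.35. The last of the 8 was in RNF217, a gene with a RING-type ubiquitin ligase domain, on chromosome 6 from 124987107 to 124988476, with a fold of 5.25 and a KO peak 6964 bp away.

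The widest members were few and spread over 6 chromosomes. Members over 1000 bp numbered 28 (1.11%, 0.767 to 1.59), against 21.3% of WT peaks that met a KO peak. The widest, 1778 bp, lay in the noncoding AC074237.1 on chromosome 18 from 29328921, and a member of 1381 bp lay on the same chromosome from 29820504, in the gene-poor stretch between CDH2 and DSC3. FLG-AS1, antisense to the filaggrin gene of the skin barrier, held one of 1574 bp on chromosome 1 from 152368567. PTGFR, the receptor gene of prostaglandin F2 alpha, was assigned one of 1432 bp with a fold of 4.34, which lay inside the authors' transcript and 78358 bp before the RefSeq gene body. Members of 1327 bp in CNTNAP2 and of 1320 bp in MDGA2 completed the 8, beside those of chromosomes 2 and 6 given above, 1578 and 1370 bp wide.

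At the limit of the rule the members did not stand out from their neighbours. The 3 members closest to a KO peak were 5007, 5016 and 5028 bp from it, with folds of 4.01, 3.38 and 3.05. The 3 WT peaks that missed by least were 5000, 4993 and 4992 bp away, with folds of 2.86, 3.37 and 3.53. The median distance of members to a KO peak was 27213 bp (quartiles 12577 and 62163), and 340 members (13.4%) were over 100 kb away. The farthest lay on chromosome 8 in CSMD1, a large gene whose product carries complement control domains, from 4852338 to 4852805, 1388105 bp from any KO peak, with a fold of 3.69. The next were intergenic, on chromosome 4 from 32825807 (fold 4.16, 909430 bp) and on chromosome 5 from 161204360 (fold 3.85, 754866 bp), the latter between ATP10B and GABRB2, which encodes a GABA receptor subunit.

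By annotation the members were mostly intergenic or deep in genes. The authors' classes put 1184 members between genes (46.8%), 1181 in gene bodies (46.7%), 164 in promoter classes (6.48%, 5.59 to 7.51), whose distances to the start ran from -2999 to 2999 bp, and 1 in a subtelomere. In isolated KO-only peaks the promoter share was 11.3%, a difference of -4.78 points (-5.80 to -3.65). In WT peaks that met a KO peak it was 9.24%, a difference of -2.76 points (-3.71 to -1.69). In the WT-only peaks near a KO peak it was 6.88%. Gene bodies differed from the mirror image as well, with 46.7% of members and 38.6% of isolated KO-only peaks, a difference of 8.13 points (6.06 to 10.2). They did not differ detectably from WT peaks that met a KO peak, with 45.8%, a difference of 0.918 points (-1.09 to 2.94). By type of gene, 37.2% of members and 29.0% of isolated KO-only peaks were assigned to protein-coding genes, and 8.50% and 10.5% to lincRNA genes. Among WT peaks that met a KO peak, 38.6% were assigned to protein-coding genes, a difference of -1.37 points (-3.31 to 0.598). For lincRNA genes it was 6.88%, a difference of 1.62 points (0.561 to 2.80). Counted by overlap with protein-coding RefSeq gene bodies, the shares were 38.1% (36.2 to 40.0) of members and 28.7% (28.1 to 29.4) of isolated KO-only peaks. Among WT peaks that met a KO peak the share was 39.8% (39.3 to 40.3). A class depends on the transcripts the authors used, and gene-body members lay a median of 37874 bp from the start of theirs.

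Promoter members of protein-coding genes seldom lay at the main start. Of the 164 promoter members 83 belonged to 79 protein-coding genes, and 27 of them lay within 1 kb of a transcript start. None of these 27 met the RefSeq promoter window of the same gene. RefSeq gave a start for 21 of the 27, and 15 of those were over 10 kb from it, so that most of these promoters belong to other transcripts of the gene. The 5 of highest fold were at DCAF6, a gene of a CUL4 ligase adaptor, on chromosome 1 (168042961 to 168043362, fold 4.24, with a further member ending 241 bp before it), COL21A1, a collagen gene on chromosome 6 (fold 4.24), TBC1D12 on chromosome 10, DEUP1, a gene of centriole amplification on chromosome 11, and KATNBL1 on chromosome 15 (fold 4.09 each). The nearest KO peaks were 76149, 10615, 24288, 20406 and 5876 bp away. Of the 21, 3 lay within 1 kb of the RefSeq start, at TBC1D21 (129 bp), RDH16 (288 bp) and KDM3B (464 bp). KDM3B, an H3K9 demethylase gene on chromosome 5, was chosen after its values were seen, and its promoter member had a fold of 2.87.

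Along the chromosomes the members were spread widely, with chromosome 4 highest and chromosome 19 lowest. On chromosome 4, 248 of 2032 WT peaks were members (12.2%, 10.9 to 13.7), followed by chromosome 14 with 8.01% (6.58 to 9.71) and chromosome 5 with 7.94% (6.95 to 9.06). On chromosome 19, known for its zinc finger gene clusters, 28 of 2298 were (1.22%, 0.844 to 1.76). Chromosomes 16 and 22 had 3.06% (2.01 to 4.63) and 3.86% (2.43 to 6.10). The interval of chromosome 4 overlapped that of no other chromosome, and that of chromosome 19 likewise. Chromosomes 14 and 5 did not differ beyond their intervals. On chromosome 4 the share was 5.75% in the first 20 Mb and 18.9% (14.4 to 24.2) from 60 to 80 Mb, and in the bins of 20 Mb from 20 Mb on it was at least 8.73%. In the KO list the order was another one, with 70.3% of the KO peaks of chromosome 21 isolated, and 29.4% of those of chromosome 19. Chromosomes 14 and 4 were high in the KO list as well, at 38.7% (36.6 to 40.9) and 32.9% (31.2 to 34.7). Both lay above the 28.1% over all chromosomes, and chromosome 5 lay below it (24.6 to 27.5). The high shares of chromosomes 4 and 14 were thus not particular to the WT list.

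**Figure D3:**
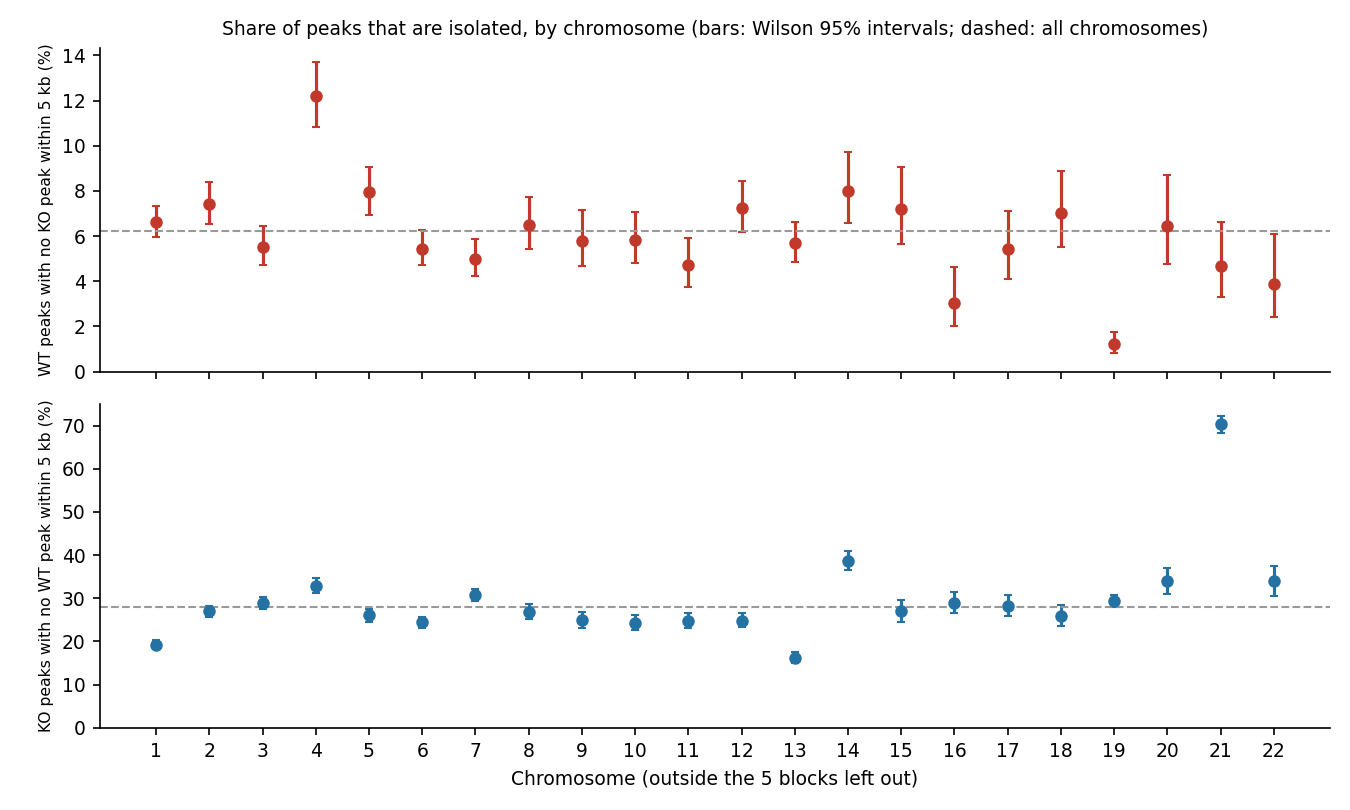
Share of WT peaks with no KO peak within 5 kb (top) and of KO peaks with no WT peak within 5 kb (bottom), in percent for each of chromosomes 1 to 22 outside the 5 blocks, with Wilson 95% intervals and the value over all chromosomes as a dashed line. Chromosome 4 (12.2%) and chromosome 19 (1.22%) stand off the dashed line of 6.21% at the top. At the bottom chromosome 21 (70.3%) stands farthest off, and chromosomes 14 (38.7%) and 4 (32.9%) also lie above the line.

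Most members had no other member nearby. With at most 100 kb between neighbours, 1524 members (60.2%) had no companion and 293 pairs formed. Chains of 3 or more held 420 members (16.6%, 15.2 to 18.1), in 108 chains. Among isolated KO-only peaks 66.4% lay in chains under the same rule, and there were 6.69 times as many of them. The longest chain held 669 isolated KO-only peaks, against 11 members in the longest chain of members. Of 503 members with another WT peak within 5000 bp, 473 had a member as the nearest, which the rule largely fixes, since no KO peak lies within 5000 bp of a member. Chains spanned 1338 to 362988 bp, and 67 of 108 (62.0%) contained no protein-coding gene. No KO peak fell inside 53 of the 108 chains, which held 184 members. The same shares were not counted for other spans of like length or for chains of isolated KO-only peaks. Neither count can therefore be read as a trait of these chains. In total 598 WT and 202 KO peaks lay within the 108 spans, and the choice of members itself favours WT peaks there.

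The 2 chains with the most members lay beside each other on chromosome 3, in a gene-poor region between DPPA4 and NECTIN3. From 109690519 to 109891361 there were 11 members with folds of 3.30 to 4.24, among 21 WT and 9 KO peaks, and 5 of them were in the noncoding AC078980.1. From 110098218 to 110337856 there were 10 members with folds of 3.30 to 3.93, no other WT peak and no KO peak. The farthest of these 10 was 294976 bp from a KO peak, and the widest were 924 and 727 bp. The first chain thus crossed a stretch with peaks in both lists, and the second one with peaks in WT alone.

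A further pair of chains lay on chromosome 1. From 101979372 to 102298694 all 9 WT peaks were members, with folds of 3.20 to 4.40, and 2 KO peaks were called. The first was in OLFM3, which encodes a secreted olfactomedin of the nervous system, and 5 were in the noncoding AC114485.1. From 106774840 to 106907637 there were 9 members among 14 WT and 2 KO peaks, in 3 tight groups with a single peak in LINC01661. The nearest protein-coding gene to that chain was PRMT6, an arginine methyltransferase gene, 149036 bp beyond its end.

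On chromosome 13 members ran through stretches that both lists marked. From 65162507 to 65338498, 9 members lay among 34 WT and 32 KO peaks, and WT peaks covered 24249 bases, KO peaks 24950. From 69337991 to 69468844, 7 members lay among 12 WT and 4 KO peaks, between PCDH9 and KLHL1. In the first of these the nearest KO peaks were 5455 to 14390 bp from the members.

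The last of the 8 chains included parts of genes. From 47529693 to 47892680 on chromosome 14, 8 members began in MDGA2, whose product binds neuroligins, and went on beyond its start, among 9 WT and 3 KO peaks. On chromosome 17 from 3359223 to 3431114, 7 members lay in a cluster of olfactory receptor genes with OR3A2, OR3A3, OR1E1 and OR1R1, among 10 WT and 4 KO peaks. This was the shortest of the 8, at 71892 bp, and its members had folds of 3.38 to 4.16.

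**Figure D4:**
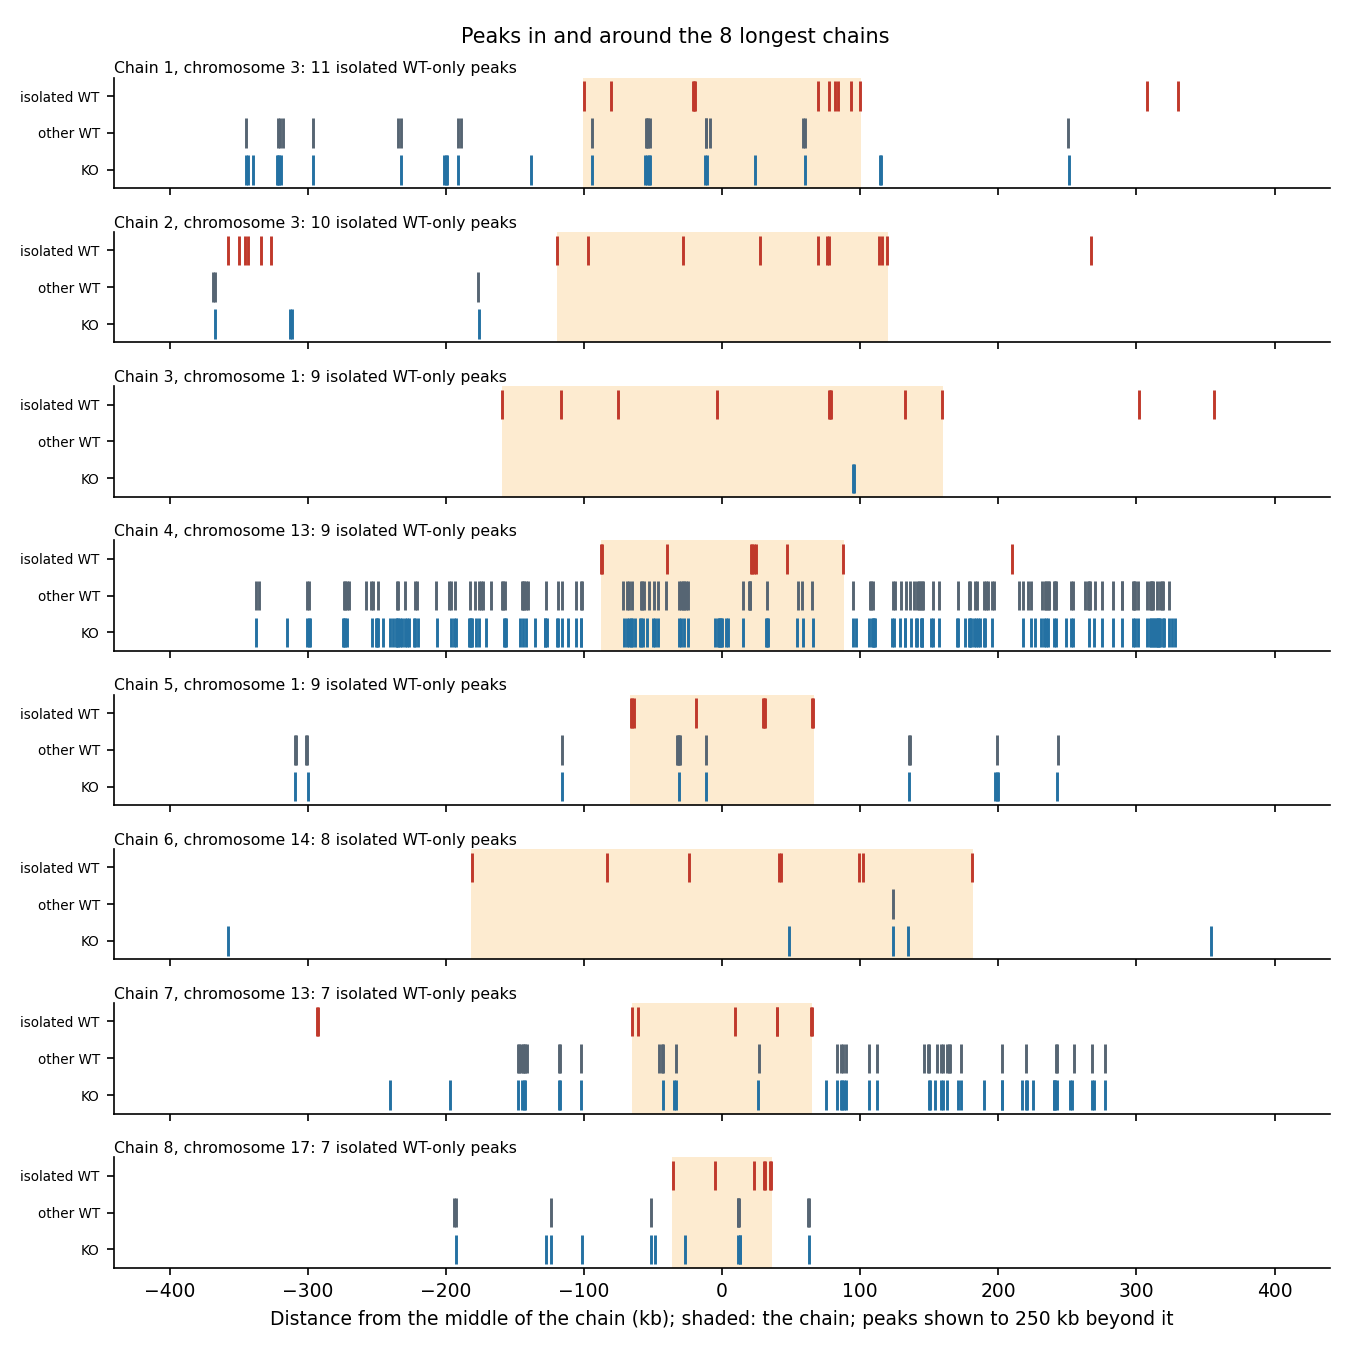
Peaks in the 8 chains with the most isolated WT-only peaks and up to 250 kb beyond, by distance in kb from the middle of each chain (shaded); each tick is the middle of 1 peak, with isolated WT peaks in red, other WT peaks in grey and KO peaks in blue. The second chain, with 10 members on chromosome 3, has no KO tick within its shading, and the fourth, on chromosome 13, has 32.

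In windows of 1 Mb, members were found in 1293 windows of the 2469 with WT peaks, 704 of them with a single member. The 83 windows with 5 or more members held 553 members (21.9%), beside 418 isolated KO-only peaks, and in all 2800 WT and 2717 KO peaks. KO peaks were fewer than WT peaks in 57 of these 83 windows, where 11.5% of all windows with WT peaks had fewer, and choosing windows by their members favours WT peaks in this count. The densest were 106 to 107 Mb on chromosome 1 (15 members, 41 WT and 19 KO peaks) and 102 to 103 Mb on the same chromosome (14 members, 21 and 8). The window from 65 to 66 Mb on chromosome 13 had 12 members but 205 WT and 253 KO peaks.

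At the level of genes the members favoured long ones. The authors' gene column assigned 1345 members to 1022 genes, of which 798 had 1 member, 161 had 2 and 63 had 3 or more. Of 19126 protein-coding RefSeq genes on chromosomes 1 to 22, 700 had a member (3.66%) and 2089 had an isolated KO-only peak (10.9%). The median length of the 700 was 192 kb (169 to 212), against 105 kb (100.1 to 109) for genes with a WT peak that met a KO peak, 130 kb (122 to 137) for genes with an isolated KO-only peak and 24.5 kb for all. Genes over 500 kb made up 17.0%, 6.66%, 11.6% and 1.58% of these groups. The part of gene length in the counts below was not tested.

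Of the 12 genes with the most members, 9 were protein-coding and 3 noncoding, and the first 2 encode adhesion proteins. CNTNAP2, a neurexin-like adhesion gene on chromosome 7, had 9 members with folds of 2.68 to 4.09, among 70 WT and 80 KO peaks. Of these 9, 6 formed a chain from 147274269 to 147429934, where 8 WT peaks and 1 KO peak were called. CDH18, a type II cadherin gene on chromosome 5, had 8 members among 11 WT peaks and 4 KO peaks, and none of its KO peaks was isolated. Its members had folds of 3.52, 3.30, 3.77, 3.77, 3.61, 2.74, 3.99 and 2.60 in order along the chromosome from 19753691 to 20546410, and the KO peaks were 19859 to 434792 bp away. They were thus spread over most of the gene body, which runs from 19471296 to 20575713.

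PARD3B, a cell polarity gene on chromosome 2, had 6 members with folds of 3.53 to 4.40, among 21 WT and 28 KO peaks. SDK1, an adhesion gene that guides synaptic layers, had 6 among 28 and 24, with folds of 3.30 to 4.48. RGS6, a regulator of G protein signalling, had 5 among 30 and 26. MDGA2 had 4 among 5 WT and 2 KO peaks, with folds of 3.38, 4.64, 3.69 and 3.85 and the nearest KO peaks 131086 to 316779 bp away. In CDH18, MDGA2 and AC114485.1 members were the larger part of the WT peaks.

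At PCDH9, AL603840.1, AUTS2 and KLHL1 members were a small part of the WT peaks. PCDH9, a protocadherin gene, had 4 members among 114 WT and 136 KO peaks, and its members were 6881 to 9728 bp from a KO peak. AUTS2, a neurodevelopmental gene, had 4 among 28 and 33, and KLHL1, a brain-expressed actin-binding gene, 4 among 22 and 20. The noncoding AL603840.1 had 4 among 41 and 48, AC078980.1 had 5 among 13 and 8, and AC114485.1 had 5 among 5 and 2. AC114485.1 was the single gene of the 12 whose WT peaks were all members.

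**Figure D5:**
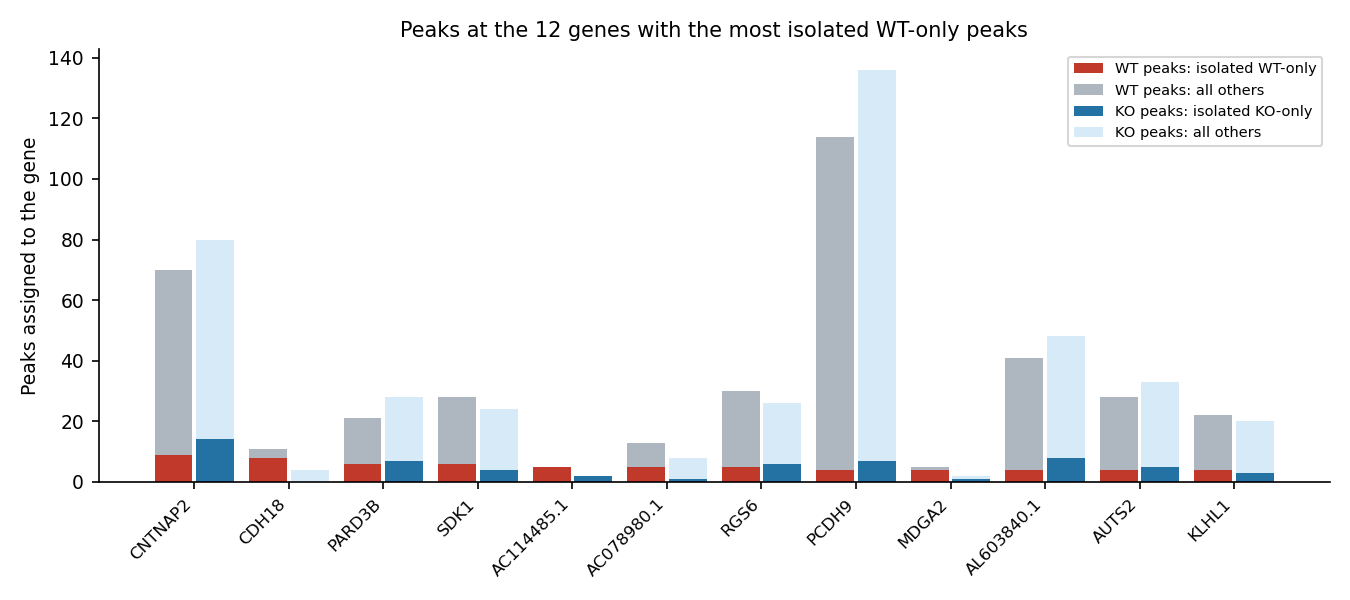
Number of peaks assigned to the 12 genes with the most isolated WT-only peaks, with WT peaks on the left (isolated in red, others in grey) and KO peaks on the right (isolated in dark blue, others in light blue). In CDH18 the red part is 8 of 11 WT peaks and the KO bar holds 4 peaks, while in PCDH9 the red part is 4 of 114.

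Some genes with members had no KO peak at all. Of the 1022 genes with a member there were 344 such genes, 185 of them protein-coding, and 39 of the 344 had 2 or more members. The rule favours this outcome, since a member has no KO peak within 5000 bp and 798 of the 1022 genes had 1 member. The share without a KO peak among all genes with a WT peak was not counted, nor was the mirror image. The 8 with 3 members were picked after their values were seen. In CHEK1, which encodes the checkpoint kinase CHK1, the members lay on chromosome 11 from 125664763 to 125667475, with folds of 3.38, 3.61 and 3.93 and KO peaks at least 41901 bp away. In PRCP, a carboxypeptidase gene on the same chromosome, they lay from 82878072 to 82881537 with folds of 4.01, 2.90 and 3.77. RPRD2, a gene linked to RNA polymerase II, had 3 on chromosome 1 from 150397176 to 150400645, with folds of 2.62, 2.92 and 3.22 and KO peaks at least 359168 bp away. AHRR, the repressor gene of the aryl hydrocarbon receptor, had folds of 2.98, 3.17 and 3.25 on chromosome 5. AUH, an RNA-binding hydratase gene on chromosome 9, had 3.93, 3.53 and 2.98. EMCN, an endothelial sialomucin gene, and the noncoding AC116049.2 and LINC02253 completed the group. At EMCN 1 of the 3 members, from 100733792 to 100734087, lay outside the RefSeq gene body, which ends at 100518022. At AUH the member of fold 2.98, from 91364459, lay outside the RefSeq gene body, which ends at 91361918. In these 8 genes every WT peak was a member, which the choice of genes without a KO peak largely fixes. In CHEK1, PRCP and RPRD2 the 3 peaks lay close together.

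Zinc finger genes of the C2H2 class, whose products bind DNA and often recruit silencing complexes, held few members. Of 552 such genes 12 had a member (2.17%, 1.25 to 3.76), beside 3.66% of all protein-coding genes, and 135 had an isolated KO-only peak (24.5%, beside 10.9%). Of the 2043 WT peaks at these genes 12 were members (0.587%), against 926 of 13315 at other protein-coding genes (6.95%), a difference of -6.37 points (-6.88 to -5.76). Peaks at zinc finger genes had a median width of 515 bp and a median fold of 3.84, close to the 503 bp and 3.77 at other genes, but a median of 43 other WT peaks within 100 kb against 5. On chromosome 19, 3 of 1256 WT peaks at zinc finger genes were members (0.239%, 0.0813 to 0.700) and 11 of 150 at other genes (7.33%, 4.14 to 12.7). Elsewhere the shares were 1.14% (0.603 to 2.16) and 6.95% (6.53 to 7.40). In the KO list 21.8% of the peaks at zinc finger genes of chromosome 19 were isolated. ZNF169 and ZNF17 had 1 WT peak each, a member of fold 3.01 and 3.63, and no KO peak. ZNF277 had 1 member of fold 4.48 among 3 WT peaks, and ZNF675 1 of fold 4.07 among 9 WT and 45 KO peaks.

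Among lists of long neuronal genes, those of adhesion and of glutamate receptors had intervals above the 3.66% of all protein-coding genes, and those of channels and of cadherins did not. Of 48 neuronal adhesion genes, with a median length of 781 kb, 10 had a member (20.8%, 11.7 to 34.3) and 25 had an isolated KO-only peak. They held 26 members in 224 WT peaks (11.6%), where all protein-coding genes had 6.11%. The KO list went the same way, with 288 of 518 KO peaks at these genes isolated (55.6%) against 23.3% at all protein-coding genes. TENM2, a teneurin gene, had 4 members among 7 WT and 5 KO peaks. ROBO2, an axon guidance receptor gene, had 3 among 28 and 47, and ADGRL3, a latrophilin gene, 3 among 9 and 9. Glutamate receptor genes, with a median length of 324 kb, had a member at 3 of 25 (12%, 4.17 to 30.0), among them GRIK1 and GRM7 with 1 each. An isolated KO-only peak was found at 13 of the 25 (52%), beside 10.9% of all protein-coding genes. By peaks, 4 of 49 WT peaks were members (8.16%) and 22 of 68 KO peaks were isolated (32.4%). Potassium, sodium and calcium channel genes had one at 8 of 116 (6.90%, 3.54 to 13.02), with CACNA1A at 3, KCNQ3 at 2 and KCNK10 and KCNK1 at 1. Protocadherin and cadherin genes had one at 5 of 86 (5.81%, 2.51 to 12.9), with 8 members at CDH18, 4 at PCDH9, 2 at CDH12 and 1 at CDH4. Genes known from common fragile sites, with a median length of 1370 kb, had a member at 15 of 27 (55.6%, 37.3 to 72.4) and an isolated KO-only peak at 25. Their 37 members were 8.92% of their 415 WT peaks, and 159 of their 572 KO peaks were isolated (27.8%). DAB1, a reelin pathway gene, had 3 members beside CNTNAP2, PARD3B and AUTS2.

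Lists of chromatin genes did not differ detectably from the 3.66% of all protein-coding genes. Among 27 genes of H3K9 methylation and its removal, 2 had a member (7.41%, 2.06 to 23.4). These were JMJD1C and KDM3B, both of the JmjC demethylase family, with 1 member each and folds of 3.53 and 2.87. JMJD1C had 4 WT and 4 KO peaks, and KDM3B had its member as the only WT peak and no KO peak. Of 28 genes of the SNF2 family, to which SMARCA3 belongs, 2 had a member (7.14%, 1.98 to 22.6), ZRANB3 and CHD9 with 1 each, among 14 and 7 WT peaks. Of 50 colorectal cancer genes 6 had a member (12%, 5.62 to 23.8), among them LRP1B with 2 and FHIT and MGMT with 1 each. By peaks, 7 of the 154 WT peaks at these genes were members (4.55%), below the 6.11% at all protein-coding genes, whereas the share of genes was above. MGMT had its member among 19 WT and 19 KO peaks. LRP1B and FHIT are also in the list of fragile site genes.

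In the remaining lists the count of genes and the count of peaks could differ in direction. Olfactory receptor genes had one at 4 of 389 (1.03%, 0.401 to 2.61), with OR2F1 at 2 of its 4 WT peaks, and OR3A3, OR3A2 and OR8A1 at 1 each. The members assigned to OR2F1 (from 143989483) and OR8A1 (from 124574488) lay outside the RefSeq gene bodies, which end at 143964360 and 124571374. Of the 27 WT peaks at olfactory receptor genes 5 were members (18.5%), above the 6.11% at all protein-coding genes. In the KO list 9 of 28 peaks at these genes were isolated (32.1%), above the 23.3% at all protein-coding genes. Marker genes of other lineages had one at 2 of 41 (4.88%, 1.35 to 16.1), RBFOX3 of neurons and VWF of endothelium, each as its only WT peak. None of 94 keratin-associated protein genes had a member, for which the limit set by 3 counts of the total is 3.19%, nor did any of 29 housekeeping genes, with a limit of 10.3%. The Wilson upper bounds for these counts of 0 were 3.93% and 11.7%, both above the 3.66% of all genes, so no difference from it was detectable for either list. With few genes or few WT peaks in these lists, no difference from the 3.66% of all genes could be detected for lists whose interval includes it.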

How the data were processed

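H3K9me3 was measured by ChIP-seq in WT and SMARCA3 knockout 293T cells, and the 12 libraries are 3 ChIP and 3 input per genotype. Per the submitters' processing notes, HISAT2 and hg38 were used. The sources used here do not give the peak caller, its settings or how replicates were pooled. The 2 lists the authors deposited list peaks with their position, q-value, fold enrichment (a ratio whose denominator the header does not define) and the nearest transcript. No column belongs to a single library, so depth is unknown and replicate spread was not measured.

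Positions were read as counted from 1, the lowest start. Distances were computed with Python 3.11.15, numpy 2.4.6 and pandas 2.3.3, intervals with scipy 1.17.1, and the code was tested on simulated lists with planted isolated peaks. No peak met another of its own list. Gene names were matched to RefSeq (GRCh38.p14) for 700 of 703 protein-coding names with a member (99.6%). The peaks and genes named are the 8 members of highest fold, the 8 widest, 5 promoter members, 3 at each side of the limit, the 3 farthest, 12 genes, 8 chains and up to 4 genes of each of 13 gene lists. Some genes that this rule names are not reported here. The members and lists were chosen with earlier results of these data known. Alternatives in distance, blocks, list length, fold and merging were tried. Sequences of the peaks themselves are not shown, and no genome was used here.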

Additional observations from a re-analysis of the deposited data

How the results depend on the processing

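The limits are those of 2 peak lists: a peak missing from the KO list is a call, not a measured level, the depth behind it is unknown, and KO was called with more peaks. No paired analysis was possible because the lists hold no column per library, and leaving out replicates could not be run either. Of 66 alternative values 31 stayed within the interval of the reported value, or within 1.5 times for the number of members, and so did all 14 gene list shares when genes were taken by overlap with RefSeq bodies.

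The number of members was 6657 when no KO peak was allowed to meet the WT peak, 792 with none within 50000 bp, 4376 when both lists were held to the common median fold, 1053 when the WT list alone was, and 6135 when the KO list was cut to the length of the WT list by fold. All 2530 members were among those 6657 and those 6135, which these settings fix in advance, since both only relax the rule. Of the 2530, 1053 (41.6%) had at least the common median fold of 3.69.

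The ratio of isolated WT-only to isolated KO-only peaks, 0.149 as reported, was 0.217 with no overlap allowed, 0.127 within 50000 bp, 0.191 with the blocks kept, 0.513 with both lists at the common median fold, 0.0386 with the WT list alone held to it, 0.565 with the KO list at equal length and 0.174 with peaks merged within 1000 bp. It stayed below 1 in each of these.

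The share of members in chains, 16.6% as reported, was 40.0% with no overlap allowed, 24.6%, 13.7% and 10.6% with distances of 1000, 10000 and 50000 bp, 28.5% with the blocks kept, 25.2% and 7.88% for the 2 settings of the median fold, 37.2% with the KO list at equal length, 10.5% after merging, and 9.84% and 33.5% with chain gaps of 50000 and 250000 bp. The cause was not tested beyond what each setting does to the number of members.

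The median width was 352 bp with the blocks kept, 457 and 373 bp for the 2 settings of the median fold, 388 bp with equal length and 351 bp after merging. The median fold was 4.01, 3.93 and 3.48 for both lists at the median, the WT list alone at it and equal length. The share in gene bodies was 44.7% with a distance of 1000 bp, 44.1% with the blocks kept and 52.5% by overlap with any RefSeq gene, and the share in promoter classes was 8.85% with the KO list at equal length.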
